A study of Mus musculus with 4 samples.

Results

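Of 20579 Pax7 peaks in differentiating mouse embryonic stem (ES) cells, 480 peaks, 2.33% of the list (95% Wilson interval 2.13 to 2.55%), had their summit near the start of a noncoding transcript and near no start of a protein-coding one. A peak was taken when its summit, the base of highest signal, lay within 1 kb of the start of any transcript in the GENCODE vM1 annotation of the mouse genome build NCBIM37 (mm9) but not within 1 kb of the start of a transcript whose own type is protein_coding. The comparison groups were the 2872 peaks within 1 kb of a coding start and the 17227 peaks away from all annotated starts.

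The study used iPax7 cells, a mouse ES line in which doxycycline (Dox) switches on a single Pax7 transgene placed next to Hprt, as a model of skeletal muscle progenitors. The cells were differentiated in serum, sorted as PDGFRα+FLK1- and taken at day 9 after 6 days of Dox at 1 µg/ml, and chromatin immunoprecipitation sequencing (ChIP-seq) gave 2 Pax7 ChIP libraries and 2 input libraries. All 4 libraries came from Dox-treated cells, so the list holds no comparison with cells lacking Pax7, and the Pax7 in question was supplied by a transgene. The replicates were merged before peaks were called: every value has no replicate error, the read depth behind it is unknown from the peak list, the cell type cannot be checked against marker genes, and the intervals given here cover the counting of peaks only.

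Pax7 is a transcription factor of muscle precursors and adult muscle stem cells, and it holds a pair of DNA-binding domains, a paired domain and a homeodomain. Noncoding transcripts are a mixed company: long intergenic RNAs (lincRNAs) and antisense RNAs have promoters of their own, small nuclear and nucleolar RNAs serve splicing and RNA modification, microRNAs (miRNAs) are cut from longer primary transcripts, and coding genes give out retained-intron and other processed transcripts that encode no protein. For miRNAs and many processed transcripts the annotated 5′ end is that of the hairpin or of a cDNA fragment, and need not be a place where transcription begins.

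The summit windows of 11 members are printed to show which of them held a Pax7-type site and which did not: 5 of the strongest or class-leading members, a miRNA member with a paired-domain core, the member nearest Runx2, and the 4 members at noncoding RNAs with known roles in muscle. Each window holds 101 bases of NCBIM37 centred on the summit, read 5′ to 3′ on the plus strand. Capitals mark the paired-domain core GTCACG, the homeodomain site TAATTA, the E-box CAGCTG and the TEAD site GGAATG, each on either strand, and a window in lower case throughout held none of these letters.
Elmo2 (chr2:165136155-165136255, plus strand): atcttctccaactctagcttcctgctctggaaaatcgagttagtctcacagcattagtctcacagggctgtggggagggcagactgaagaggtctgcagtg
Arid3a (chr10:79408717-79408817, plus strand): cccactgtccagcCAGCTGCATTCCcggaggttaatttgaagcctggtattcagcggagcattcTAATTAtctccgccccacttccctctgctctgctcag
BC042782, antisense RNA beside Jun (chr4:94719927-94720027, plus strand): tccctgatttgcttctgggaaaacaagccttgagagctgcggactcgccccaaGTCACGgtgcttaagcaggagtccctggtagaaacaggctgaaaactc
U6 (chr11:22768384-22768484, plus strand): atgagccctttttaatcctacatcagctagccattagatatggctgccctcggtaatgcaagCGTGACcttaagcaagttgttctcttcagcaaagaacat
6430562O15Rik, lincRNA (chr13:100182406-100182506, plus strand): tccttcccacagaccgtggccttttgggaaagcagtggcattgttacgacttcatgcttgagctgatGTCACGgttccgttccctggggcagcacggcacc
AC132957.1, annotated miRNA (chr19:45099413-45099513, plus strand): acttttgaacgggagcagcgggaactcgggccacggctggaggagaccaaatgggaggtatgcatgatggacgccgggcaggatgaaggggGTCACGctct
9530072K05Rik, antisense RNA in Runx2 (chr17:44846905-44847005, plus strand): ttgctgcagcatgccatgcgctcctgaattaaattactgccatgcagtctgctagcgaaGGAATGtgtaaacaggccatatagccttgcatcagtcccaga
Malat1 (chr19:5802694-5802794, plus strand): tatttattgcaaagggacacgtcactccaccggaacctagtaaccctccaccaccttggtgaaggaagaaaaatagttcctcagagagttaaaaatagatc
Neat1 (chr19:5845459-5845559, plus strand): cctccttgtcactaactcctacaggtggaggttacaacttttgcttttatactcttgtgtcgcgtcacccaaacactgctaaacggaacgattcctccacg
Dnm3os (chr1:164146977-164147077, plus strand): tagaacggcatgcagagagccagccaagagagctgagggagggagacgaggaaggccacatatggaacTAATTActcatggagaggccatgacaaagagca
Mir206 (chr1:20668198-20668298, plus strand): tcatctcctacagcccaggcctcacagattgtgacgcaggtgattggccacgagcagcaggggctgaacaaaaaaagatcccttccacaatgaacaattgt
The core stood 5.5 bp from the summit at BC042782, 14.5 bp from it at U6, 19.5 bp at 6430562O15Rik and 43.5 bp at AC132957.1. The Arid3a window had TAATTA 16.5 bp to the right of the summit and an E-box abutting a TEAD site on its left, and the Dnm3os window had TAATTA 20.5 bp to the right.

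The genomic space open to such peaks was small. Positions within 1 kb of a noncoding start and of no coding start made up 1.85% of the sequenced genome, or 47.2 Mb, and held 10.2 summits per Mb. Space within 1 kb of coding starts held 48.7 summits per Mb, and space away from starts held 7.03. The share of summits near noncoding starts was thus 1.26 times the share of the genome there, against 6.05 times for coding starts. Counted by start, 593 of 26728 noncoding-only start positions (2.22%, interval 2.05 to 2.40%) had a summit within 1 kb, whereas 12.0% of protein-coding start positions did (interval 11.7 to 12.3%). Neighbouring starts can share a summit: the 5494 coding start positions with one were served by 2872 peaks. Start positions are therefore not independent, and the intervals by start, here and by class below, are too narrow.

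Classes of noncoding start differed in how often they had a summit. The starts of long noncoding genes led: 6.90% of 478 starts of other long noncoding genes (interval 4.96 to 9.54%), 4.88% of 2214 lincRNA starts (4.06 to 5.86%) and 4.23% of 1324 antisense starts (3.27 to 5.45%). These 3 intervals overlap one another. The class of other long noncoding genes is mixed. Its members lay at 7 processed, 5 sense-intronic and 1 other noncoding transcript, and also at 2 transcripts of type pseudogene and 1 transcribed unprocessed pseudogene. Noncoding transcripts of coding genes stood lower at 2.25% of 11648 starts (2.00 to 2.53%), beside small RNAs at 2.09% of 3693, and miRNAs had 1.36% of 1466. Pseudogenes came last of these classes, at 0.553% of 5425 starts (0.388 to 0.788%), an interval that touches none of those of the long noncoding classes. The authors kept reads with a single mapping position only, and the part of read placement in these shares was not tested. No share was worked out for like windows elsewhere in the genome, so a low share does not show that Pax7 avoided a class.

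**Figure D1:**
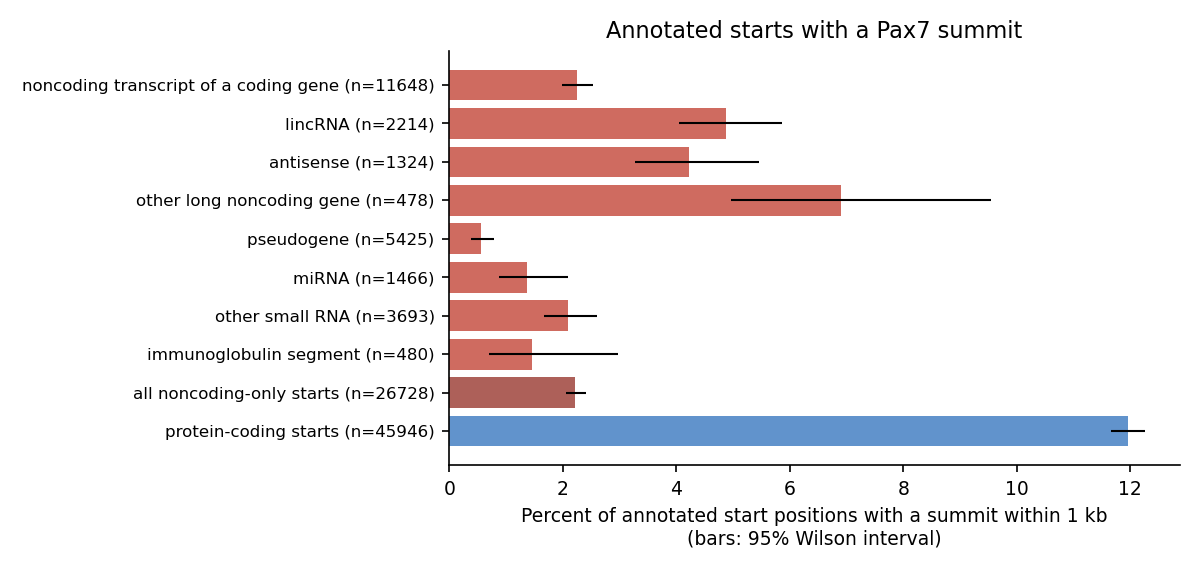
Percent of annotated start positions with a Pax7 summit within 1 kb (x axis), by class of noncoding start and, in blue, for protein-coding starts. Lines are 95% Wilson intervals. Other long noncoding genes, lincRNAs and antisense RNAs lie between 4.23 and 6.90%, below coding starts at 12.0% and above pseudogenes at 0.553%.

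Assigned to its nearest noncoding start, almost every second member belonged to a coding gene after all: 223 of the 480 members (46.5%, interval 42.0 to 50.9%) lay at a noncoding transcript of a gene that also encodes protein. The annotation has a like make-up, with 11648 of the 26728 noncoding-only start positions in this class, so the share does not set the members apart. For the 223 members the nearest start was a processed transcript in 126 cases, a retained intron in 82 and a transcript marked for nonsense-mediated decay in 15. The other 257 members split into 79 at lincRNAs, 69 at small RNAs other than miRNAs, 47 at antisense RNAs, 24 at pseudogenes, 17 at miRNAs, 16 at other long noncoding genes and 5 at segments annotated as immunoglobulin genes. The decay transcripts and immunoglobulin segments entered only because their transcript type is not protein_coding. In all, 456 genes had a member, and 23 of them had more than 1. Kif5c, which encodes a kinesin motor, had 3, with fold enrichments of 8.60, 7.14 and 4.05 at separate processed transcripts within the gene.

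Fold enrichment, the ChIP signal at the summit over the local background, did not set the members apart. Their median was 5.12 (quartiles 4.27 and 6.51, range 2.45 to 25.1), beside 4.95 for coding-start peaks, 5.23 for peaks away from starts and 5.22 for the whole list. A fold of at least 5 was reached by 253 members (52.7%, interval 48.2 to 57.1%), and by 54.9% of all peaks. The difference from coding-start peaks was 3.86 percentage points (95% Newcombe interval -0.972 to 8.65) and from peaks away from starts -3.30 points (-7.83 to 1.19), both of which include 0. At least 10-fold enrichment was seen at 27 members (5.62%) and at 6.99% of all peaks.

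Class medians were close together, from 4.80 for antisense RNAs and immunoglobulin segments and 4.84 for small RNAs to 5.23 for transcripts of coding genes and 5.58 for pseudogenes. Within every one of the 8 classes the range of folds was wider than that spread of medians. At the distance of 1 kb that sets the rule, enrichment was as follows. The 48 members 901 to 1000 bp from their noncoding start had a median fold of 5.04, and the 45 peaks 1001 to 1100 bp away, just outside, had 5.07. The 15 members 1001 to 1100 bp from a coding start had a median of 5.02 (quartiles 4.24 and 6.19), and the 28 peaks left out because a coding start lay 901 to 1000 bp away had 5.69 (4.67 and 7.13).

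**Figure D2:**
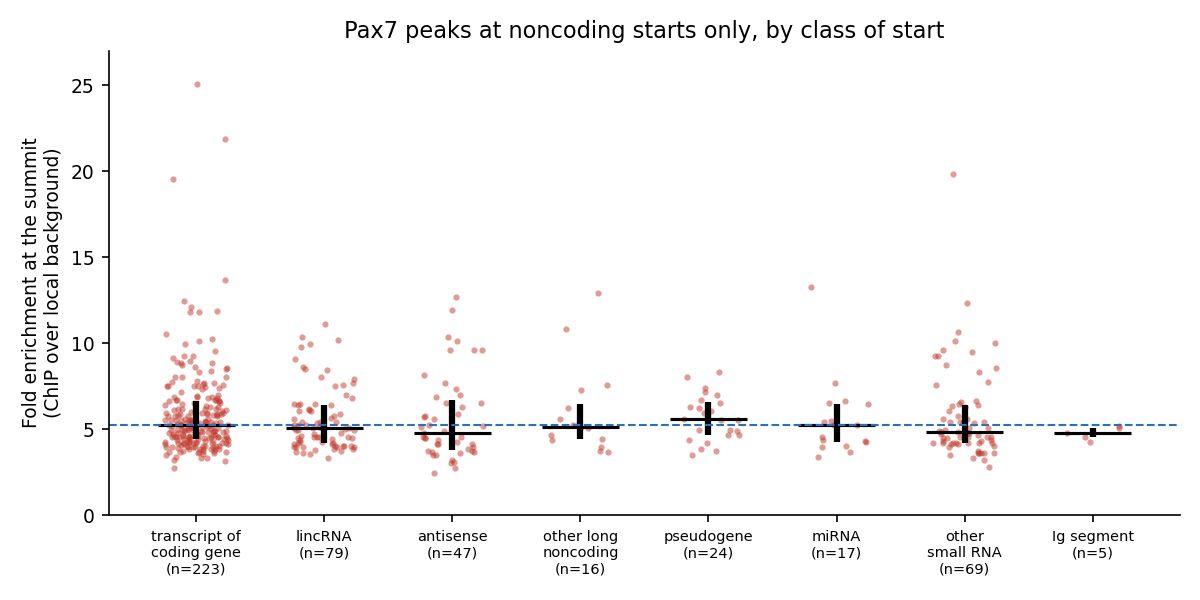
Fold enrichment at the summit (y axis, linear) for each of the 480 members, by class of the nearest noncoding start. Points are peaks, horizontal bars medians, vertical bars quartiles, and the dashed line is the median of all peaks, 5.22. The 8 class medians lie between 4.80 and 5.58 while single members reach 25.1.

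The strongest members lay mostly inside coding genes. The highest was at Elmo2, which encodes an adaptor of Rac activation in cell migration, at a fold of 25.1 and rank 6 of all peaks (chr2:165136039-165136398). Its summit lay in an intron, 937 bp downstream of a retained-intron start and 1047 bp from the coding start, so it fell outside the coding group by 47 bp. Pipox, for a peroxisomal oxidase, followed at 21.9, with its summit in an intron 818 bp upstream of a processed transcript and 8.73 kb from the coding start. Fryl, a relative of the Drosophila gene furry, had 19.5 in an exon, 48.5 kb from the nearest coding start. Arid3a, for an AT-rich DNA-binding factor, had 13.7 and Fndc1, for a fibronectin-domain protein, 12.5, both in introns.

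Noncoding genes supplied the rest of the 10 highest. An annotated U6 small nuclear RNA on chromosome 18, in an intron of Wdr7, had a fold of 19.9, and another on chromosome 11 had 12.3. The predicted miRNA AC132354.1 had 13.2, and Gm12305, a sense-intronic RNA whose nearest coding start, 115 kb away, was that of the guidance cue gene Ntn1, had 12.9. BC042782, an antisense RNA, had 12.7 with the summit 46 bp inside its start, and that summit was 1064 bp from the start of Jun, the AP-1 subunit gene. Of these 10 summits, those at BC042782 and the chromosome 11 U6 had a paired-domain core within 50 bp. The highest members of the other classes were the lincRNA 6430562O15Rik at 11.1, the pseudogene Gm9183 at 8.33 and the segment Gm17472 at 5.21.

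Members were less gathered at their starts than coding-start peaks were. The summit lay within 100 bp of the start for 89 members (18.5%, interval 15.3 to 22.3%) and for 38.7% of coding-start peaks, a difference of -20.1 points (-23.8 to -16.0). Within 250 bp the shares were 35.8% and 63.2%. Upstream positions held 52.1% of members and 66.0% of coding-start peaks. The gathering differed between kinds of start: 59 of 257 members at noncoding genes (23.0%) and 30 of 223 at transcripts of coding genes (13.5%) were within 100 bp, a difference between the latter and the former of -9.50 points (-16.2 to -2.55). LincRNAs had 22 of 79 within 100 bp (27.8%), and antisense RNAs 5 of 47 (10.6%).

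**Figure D3:**
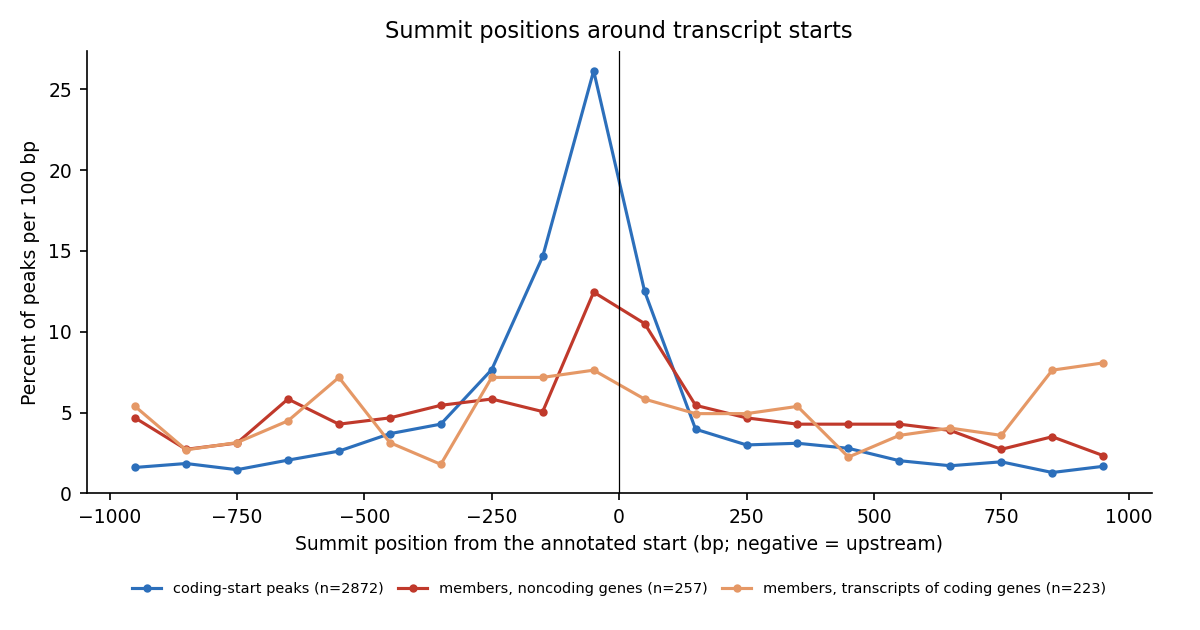
Position of the summit from the annotated start (x axis, bp, negative is upstream) as percent of peaks per 100 bp (y axis), for 2872 coding-start peaks, 257 members at noncoding genes and 223 members at noncoding transcripts of coding genes. Coding-start peaks rise steeply just upstream of the start, members at noncoding genes rise less, and members at transcripts of coding genes show no comparable rise.

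Most members were within genes. An intron held 258 summits (53.8%), an exon 123 (25.6%) and the space between genes 99 (20.6%), and 309 (64.4%) lay in the body of a coding gene. Over all peaks these shares were 47.1%, 7.03%, 45.9% and 51.3%, and over coding-start peaks 26.6%, 27.9%, 45.5% and 51.0%. Since every annotated start is the first base of an exon, a rule on the distance to starts bears on the shares in exons and between genes by itself. The median distance from a member to the nearest coding start was 15.1 kb, and 59 members lay 1 to 2 kb from one, 161 lay 5 to 20 kb away and 40 over 100 kb. Among the 112 members within 5 kb of a coding start, the noncoding start was on the same strand and downstream in 51 and divergent, upstream on the opposite strand, in 27. The divergent members had the highest median CpG ratio of the 4 arrangements, 0.500.

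CpG content placed the members between the other groups. The ratio of observed to expected CpG in 500 bp around the summit, which is near 1 in an unmethylated CpG island and low in the methylated bulk of the genome, had a median of 0.331 at members (quartiles 0.215 and 0.468), 0.748 at coding starts and 0.242 away from starts. A ratio of at least 0.6 was found at 71 members (14.8%, interval 11.9 to 18.2%), 70.6% of coding-start peaks and 2.83% of peaks away from starts. Over all peaks, coding starts included, the share was 12.6%, within the members' interval. The members differed from coding starts by -55.8 points (-59.1 to -52.0) and from peaks away from starts by 12.0 points (9.05 to 15.4). LincRNA members were the richest large class: 24 of 79 (30.4%) reached 0.6, against 47 of the other 401 members (11.7%), a difference of 18.7 points (8.96 to 29.9). Members at transcripts of coding genes reached it in 16 of 223 cases (7.17%), 14.2 points fewer than members at noncoding genes, where 55 of 257 did (21.4%, interval of the difference -20.3 to -8.04).

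**Figure D4:**
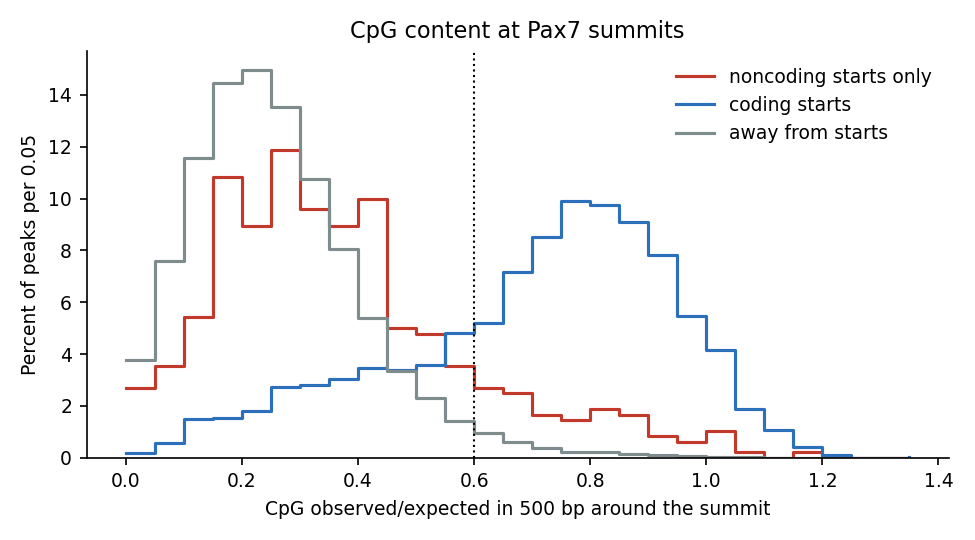
Distribution of the CpG observed/expected ratio in 500 bp around the summit (x axis) as percent of peaks per bin of 0.05 (y axis) in members, coding-start peaks and peaks away from starts. The dotted line marks 0.6. Members peak at low ratios, near the peaks away from starts, with a tail above 0.6 that holds 14.8% of them.

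The paired-domain core was enriched at the summits. GTCACG on either strand within 50 bp was found at 63 members (13.1%, interval 10.4 to 16.4%) and at 11.1% of all peaks. In windows of the same width centred 500 bp to either side of the members' summits it was found in 1.46% (0.871 to 2.43%), a summit-minus-flank difference of 11.7 points. Members fell below coding-start peaks, 19.5% of which held the core, by 6.37 points (interval -9.48 to -2.77), and stood above peaks away from starts, at 9.69%, by 3.44 points (0.670 to 6.78). In bins of 50 bp, 7.50 cores per 100 members lay in the first 50 bp to the right of the summit and 6.67 to its left. The next bins out held 2.29 and 2.08. The rearranged control GTACCG, which keeps the CpG, was in 1.04% of members and 0.729% of their flanks, and the control GCACTG, with no CpG, was in 7.92% and 6.67%.

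The core's share was highest among the members of highest enrichment and of highest CpG ratio, as it was over all peaks. By fold enrichment it was present at 9 of 76 members below 4 (11.8%), 12 of 151 from 4 to 5 (7.95%, interval 4.60 to 13.4%), 24 of 160 from 5 to 7 (15.0%, 10.3 to 21.3%), 10 of 66 from 7 to 10 (15.2%, 8.44 to 25.7%) and 8 of 27 at 10 or above (29.6%, 15.9 to 48.5%). Neighbouring intervals overlap, and the lowest share was not in the weakest stratum. Over all peaks the shares in the same strata were 8.62%, 9.31%, 10.9%, 13.9% and 19.5%. By CpG ratio the core was present at 7 of 108 members below 0.2 (6.48%, 3.17 to 12.8%), 22 of 189 from 0.2 to 0.4 (11.6%), 16 of 112 from 0.4 to 0.6 (14.3%) and 18 of 71 at 0.6 or above (25.4%, 16.7 to 36.6%), beside 5.53%, 11.4%, 14.6% and 21.1% over all peaks. The core itself contains a CpG, and so the CpG ratio and the core are not separate measures. At a ratio of 0.6 or above, 21.5% of coding-start peaks had the core, within the members' interval. Away from starts, the shares in the same CpG strata were 5.51%, 11.2%, 14.4% and 18.4%, each within the members' interval for that stratum. The higher share of members over peaks away from starts was thus not resolved within any CpG stratum. By class, lincRNA members had it in 15 of 79 cases (interval 11.9 to 29.0%), transcripts of coding genes in 31 of 223 (13.9%) and small RNAs in 5 of 69 (7.25%), and the differences of lincRNAs and of small RNAs from the other members had intervals that include 0 (-0.944 to 17.4 and -12.4 to 2.27 points).

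In the letters of other factors, the members resembled peaks away from starts more than coding-start peaks. The E-box CAGCTG, bound by myogenic and related bHLH factors, was in 77 member windows (16.0%) and 4.06% of their flanks. Coding-start peaks had it in 8.22%, which is 7.82 points fewer (interval of the difference 4.63 to 11.5), and peaks away from starts in 16.9% (difference -0.897 points, -3.96 to 2.70). The AP-1 site TGANTCA was in 6.88% of members against 2.58% of coding-start peaks (difference 4.30 points, 2.26 to 6.97). The TEAD site was in 10.4% of members against 6.79% (3.63 points, 1.01 to 6.80). The RUNX site TGTGGT was in 10.0% of members and 8.96% of their flanks, and so was hardly concentrated at the summit.

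TAATTA was in 6.88% of members, 2.60% of their flanks and 2.51% of coding-start peaks. TAAT and ATTA parted by 2 bases, the arrangement of a homeodomain dimer, was at 7 members (1.46%, interval 0.708 to 2.98%), 0.313% of coding-start peaks, 0.900% of peaks away from starts and 0.831% of all peaks, the last within the members' interval. The interval of the difference was 0.344 to 2.67 points from coding starts and -0.207 to 2.09 points from peaks away from starts.

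Letters typical of coding promoters were less frequent than at coding starts and near their share of the whole list. The GC box GGGCGG was in 4.38% of members (4.57% of all peaks) against 21.6% of coding-start peaks (difference -17.2 points, -19.4 to -14.6), and the ETS site CCGGAA in 5.00% (4.04% of all peaks) against 14.8% (-9.76 points, -11.9 to -7.12). Both were more frequent than away from starts, at 1.73% and 2.23%, by 2.65 points (1.14 to 4.87) and 2.77 points (1.14 to 5.11). Over all peaks, the E-box was in 15.7% of these windows, the TEAD site in 11.0%, the RUNX site in 9.73%, the AP-1 site in 6.82% and TAATTA in 6.13%. A match to such short letters describes the sequence and does not show that a factor was bound.

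**Figure D5:**
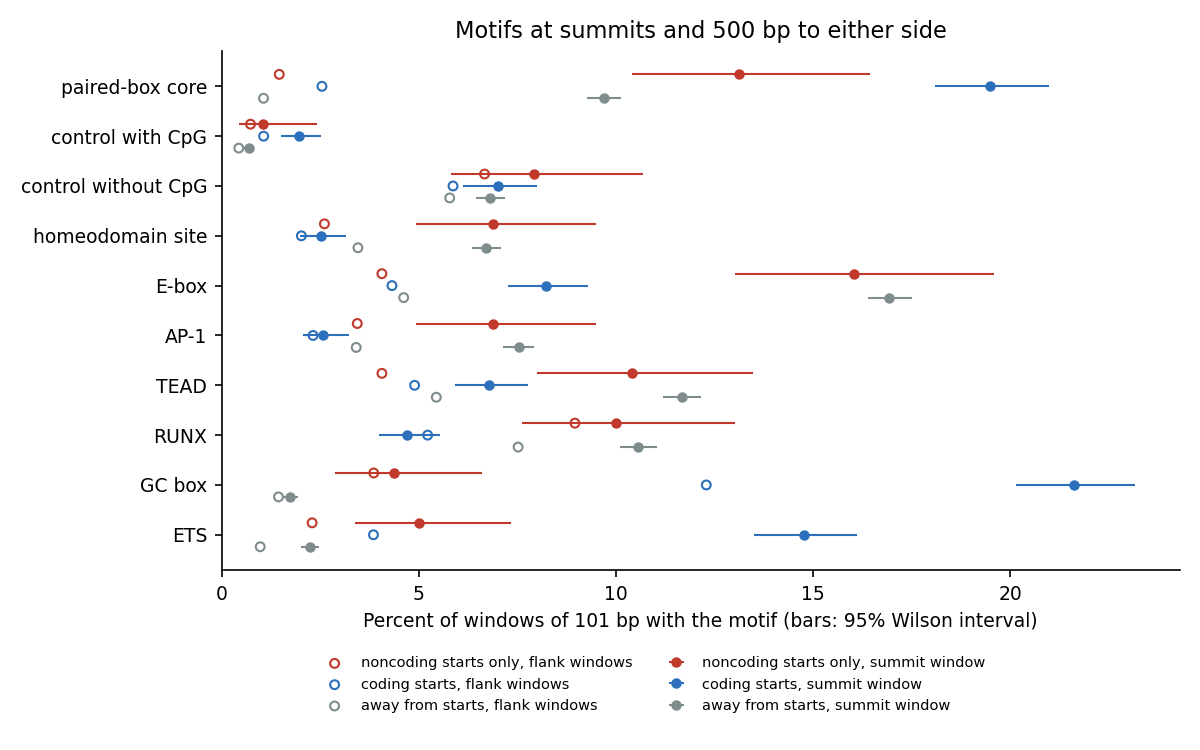
Percent of windows of 101 bp holding each motif (x axis) in members, coding-start peaks and peaks away from starts. Filled points are summit windows with 95% Wilson intervals and open circles the mean of the flank windows centred 500 bp to either side. For the core, members (13.1%) lie between coding-start peaks (19.5%) and peaks away from starts (9.69%), and for the E-box, AP-1 and TEAD sites their intervals cover the share of peaks away from starts.

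Small RNA members stood out by width. Of the 69, 43 were at small nuclear RNAs of the spliceosome and its relatives, 24 of them named U6, and 17 at small nucleolar RNAs. Peaks of at least 500 bp made up 11 of the 69 (15.9%) and 15 of the other 411 members (3.65%), a difference of 12.3 points (5.12 to 22.8), and 4.09% of all peaks. The miRNA members, counted among the others, had 2 of 17 that wide (11.8%, interval 3.29 to 34.3%). Most members at small nuclear RNAs were narrower: 2 of 24 at U6 and 4 of 19 at the others were that wide. Those 4, at U4, U11 and U5, are given next and do not stand for the 19, whose median CpG ratio was 0.419. The 2 U4 genes on chromosome 5 had folds of 10.1 and 6.57, widths of 509 and 546 bp and CpG ratios of 0.851 and 1.17, with summits 95 and 130 bp inside the starts. U11 had a fold of 9.60, a width of 539 bp and a ratio of 0.953, and the U5 copy with the highest fold had 8.34, 550 bp and 0.819. The U6 members had a median ratio of 0.301, and 11 of the 24 summits were within 250 bp of the start. Such RNAs are annotated in many copies, and the authors kept reads with a single mapping position only. How alike these copies are was not measured, and the part of read placement in these peaks was not tested.

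Among miRNA members, the highest after AC132354.1 were AC123610.1 at 7.68, AC132957.1 at 6.63, AL670285.1 at 6.51 and Mir667 at 6.45. The first 3 of these 4 are predictions known only by clone name, and 6 of all 17 miRNA members matched a mature miRNA of RefSeq by symbol. Mature sequences are printed for the 3p arms of the 2 matched miRNAs that the values here turn on, and their 5p arms are left out. Both arms are printed for miR-199a, whose hairpin Mir199a-2 lay 918 bp from the Dnm3os summit. The sequences are from RefSeq (GRCm38.p6), and capitals mark the seed, bases 2 to 8, which pairs with target RNAs.
miR-206-3p: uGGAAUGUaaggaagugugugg
miR-667-3p: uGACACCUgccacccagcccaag
miR-199a-5p: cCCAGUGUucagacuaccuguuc
miR-199a-3p: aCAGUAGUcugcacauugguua
The 4 printed seeds differ from one another. The Mir667 summit lay 92 bp upstream of the hairpin, in the miRNA cluster of the imprinted Dlk1-Dio3 region, and 120 kb from its nearest coding start, Rtl1.

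Among noncoding RNAs with known roles in muscle, 4 genes had a member at their start. Malat1, an abundant nuclear lincRNA, had a fold of 6.39 with the summit 73 bp upstream of the start and a CpG ratio of 0.685. Neat1, the scaffold of nuclear paraspeckles and the neighbour of Malat1 on chromosome 19, had 5.62 with the summit 31 bp upstream and a ratio of 0.555. Both were summits at the start itself, 31.3 and 29.7 kb from the nearest coding start, and neither window held a core.

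Dnm3os, the antisense host RNA of miR-199a and miR-214, had a fold of 5.60 with its summit 727 bp upstream, in an intron of Dnm3. The same summit was 6.47 kb from Mir214. Mir206, the muscle-specific miRNA, had 5.28 with its summit 843 bp upstream of the hairpin, and Mir133b, from the same locus, was 4.60 kb from it. The CpG ratios of these were low, 0.147 at Dnm3os and 0.137 at Mir206. The ranks of the 4 genes among all members were 131 for Malat1, 179 for Neat1, 181 for Dnm3os and 218 for Mir206, so none was among the strongest.

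Over the whole list of muscle noncoding RNAs, 31 of 35 genes were annotated by name. A summit lay within 1 kb of 5 of them, the 4 above and Mir199a-2, within 10 kb of 12 and within 50 kb of 22. The 24 miRNAs among them had 2, 9 and 15 within these distances, where of 1576 annotated miRNA genes 2.35%, 17.4% and 47.3% had a summit so near. The 7 long RNAs had 3, 3 and 7, beside 7.70%, 24.3% and 59.7% of 3845 annotated long noncoding genes. With so few genes, and with Dnm3os and Mir199a-2 or the miRNAs of one cluster sharing a summit, these counts describe the list and no more. Of 30 long noncoding RNAs of chromatin and imprinting, 13 were annotated by name, and Gas5 alone had a summit within 1 kb, a coding-start peak of fold 3.48 that also lay 593 bp from Zbtb37. Of 18 host genes of small nucleolar RNAs, 8 were annotated, and 2 had a summit within 1 kb: Snhg3 by a peak 117 bp from the coding start of Rcc1, and Snhg4 by a member of fold 4.17 that lay 995 bp from it and nearer to another noncoding start. Neither list thus had a member as nearest start. RNAs absent by name could be present under other names. A pair of members lay at genes annotated as 7SK, on chromosomes 15 and 12, with folds of 9.24 and 4.86. Neither was matched to Rn7sk.

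All 82 genes of the myogenic list, regulators and structural genes of muscle, were annotated. A summit of any peak lay within 1 kb of a start for 15 of them (18.3%). It did so for 14.1% of all 22350 protein-coding genes, a share within the 95% Wilson interval of the list. Within 10 kb the shares were 47.6% of the list (interval 37.1 to 58.2%) and 28.6% of protein-coding genes. Within 50 kb they were 79.3% (69.3 to 86.6%) and 58.0%. At both wider distances the list thus stood above protein-coding genes at large, and the cause was not tested. As the nearest coding start within 100 kb, a gene of the list was found for 4 members (0.833%, interval 0.325 to 2.12%) and for 0.884% of all peaks. Among the 4 were both members at BC042782, nearest to Jun, with folds of 12.7 at 1.06 kb and 3.76 at 46.0 kb. The others were 9530072K05Rik, an antisense RNA whose summit lay in an intron 24.7 kb from the start of Runx2, the regulator of bone formation, with a fold of 9.59 and a CpG ratio of 0.214, and the predicted miRNA AL929120.1, 86.2 kb from the start of Zeb2, a repressor of epithelial genes, with a fold of 5.41. A nearest start is a position on the map, and no link between these peaks and the genes' expression was measured here.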

How the data were processed

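Pax7 ChIP and input libraries (2 each) were aligned to mm9, and the authors merged replicates and called peaks with MACS2. The deposited list gives, for each peak, its position, the fold enrichment at the summit (a ratio to the local background), the deposited −log10 p-value and −log10 q-value, and a deposited score; the authors kept peaks by a q-value limit of 0.01. Sequencing depth is not in the list. Summits were placed against GENCODE vM1 transcripts on NCBIM37 with pandas 2.3.3 and pysam 0.24.0, and each motif was sought on either strand in the 50 bp flanking each summit and in equal windows 500 bp to either side. Shares carry 95% Wilson intervals and differences 95% Newcombe intervals (statsmodels 0.14.6), and peaks are not replicates, so no test was made. The members and lists were chosen with earlier results of these data known. Named were the 10 members of highest fold, the highest of each class with at least 5 members, members at listed noncoding RNAs or nearest to a myogenic gene within 100 kb, and the 5 highest miRNA members. The Kif5c, U4, U11, U5, 7SK, Snhg and Gas5 loci were named after their values were seen. Scripts were tested on simulated data. Alternatives covered the distances, the starts allowed, the −log10 q minimum, merging of near summits and the motif and CpG windows.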

Additional observations from a re-analysis of the deposited data

How the results depend on the processing

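Of 69 alternative values, 58 stayed within 1.5 times the count or within the interval of the value given. Members numbered 724 with starts within 2000 bp and 263 with starts of noncoding genes only. The median CpG ratio was 0.396 with starts within 500 bp, 0.286 with starts within 2000 bp and 0.364 in a window of 200 bp. The core was found in 8.96% of members within 25 bp of the summit (8.13 points above the flanks), in 17.3% within 100 bp, and in 16.6% of members of at least 5-fold. The share of noncoding starts with a summit was 1.45% within 500 bp and 3.57% within 2000 bp. The cause of these shifts was not tested beyond the altered setting itself. The core share stayed below that of coding-start peaks under each alternative run. No paired analysis was possible because the peaks were called once on merged libraries, and for the same reason no replicate could be left out. Weak peaks, and the spread of enrichment between replicates, cannot be judged from this list.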

Other observations

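Of the 245 noncoding genes with a member, 62 matched a lncRNA of RefSeq by Ensembl identifier or symbol, 12 a pseudogene, 5 a transcribed pseudogene, 6 a miRNA, 2 a snoRNA and 5 a protein-coding gene, and 153 matched no entry in the table used here. Another summit lay within 10 kb of 176 members (36.7%) and of 35.2% of all peaks.

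The CCAAT box was in 17.1% of member summit windows and 11.4% of their flanks, against 22.3% of coding-start peaks and 16.9% of peaks away from starts. The TATA box TATAAA was in 4.38% of member windows and 6.88% of their flanks. TAAT and ATTA parted by 3 bases were found at 2 members (0.417%), beside 1.13% of peaks away from starts.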
